A study of Mus musculus musculus x M. m. domesticus and Mus musculus domesticus and Mus musculus with 12 samples.

Results

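The genes described here are 6 genes of the acrosome and of sperm-egg fusion, chosen by name: *Acr* (ENSMUSG00000022622_at), *Spaca1* (ENSMUSG00000028264_at), *Zpbp* (ENSMUSG00000020193_at), *Izumo1* (ENSMUSG00000064158_at), *Acrv1* (ENSMUSG00000032110_at) and *Adam2* (ENSMUSG00000022039_at). All 6 were among the 7000 genes of the deposited expression values. Expression was measured in whole testis of 12 F1 males aged 60 days, 3 from each of 4 crosses written with the maternal strain first, with 1 Affymetrix Mouse Genome 430 2.0 array per male. A LEWES/EiJ mother and a WSB/EiJ father gave the fertile *DxD* males, within *M. domesticus*, and a PWK/PhJ mother and a CZECHII/EiJ father the fertile *MxM* males, within *M. musculus*. Hybrids came from LEWES/EiJ mothers and PWK/PhJ fathers (*DxM*, fertile) or from PWK/PhJ mothers and LEWES/EiJ fathers (*MxD*, sterile). All 4 strains are wild-derived and inbred, and no treatment is listed. WSB/EiJ and CZECHII/EiJ contributed to neither hybrid, so the within-species males stand for the species and not for the hybrids' own parents. The array was designed from a laboratory mouse genome that is mostly of *M. domesticus* origin.

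The acrosome is a vesicle that round spermatids build from Golgi membranes and spread over the front of the nucleus. Its contents are released before sperm pass through the coat of the egg (the zona pellucida). This release exposes inner membranes and lets the sperm head bind and fuse with the egg. *Spaca1* encodes a protein of the inner acrosomal membrane that is needed to shape the acrosome, and *Zpbp* and *Acrv1* (also called SP-10) encode proteins of its matrix. *Acr* encodes proacrosin, the precursor of its best-known serine protease. *Izumo1* encodes the sperm protein that binds the egg receptor Juno before fusion, and *Adam2* encodes fertilin beta, a membrane protein needed for the correct surface make-up of sperm.

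The arrays were quantile normalized, so all 12 hold the same sorted values, with a median of 8.14 on the log2 scale, and a value is relative to the other genes of its array. There is no read depth here, and precision is limited by having 3 arrays per genotype. The spread differed between genotypes, with a within-genotype variance averaged over genes of 0.0147 in *DxD*, 0.0203 in *DxM*, 0.0278 in *MxD* and 0.0879 in *MxM*. *MxM* replicate 3 stood apart, with 131 genes that were lower there than in the other 11 males by 1 log2 unit or more, against at most 4 such genes in any other array. Differences were tested with limma, fitted to all 4 genotypes, and called at a Benjamini-Hochberg adjusted p under 0.05 over 7000 genes. Labels name each male as a replicate of its cross, and no litters are given.

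The 6 genes did not pass the test between the sterile and the fertile hybrids. In *MxD* and *DxM* testis, 0 of the 6 differed, where 6.50% of all genes did, and 0 passed with the replicate number as a block (17.2% of all genes). An unadjusted p under 0.05 was reached by 0 of the 6 with limma (21.8% of all genes) and with the methods' t-test (unequal variances, each gene alone, 15.0%), which after adjustment called 0 genes of 7000. The *MxD* and *DxM* males overlapped in each of the 6 genes, and 26.4% of all genes separated them. *MxD* also overlapped with the range of all 9 fertile males in each of the 6 genes, and 11.0% of all genes lay outside that range. At shares of this size a count of 0 among 6 genes is not rare, so these counts do not set the 6 genes apart from other genes. Differences ran from -0.07 for *Spaca1* to 0.09 for *Adam2* on the log2 scale, with 4 of the 6 genes higher in *MxD* and a median of 0.03. Over all 7000 genes the median difference was 0.00.

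**Figure D1:**
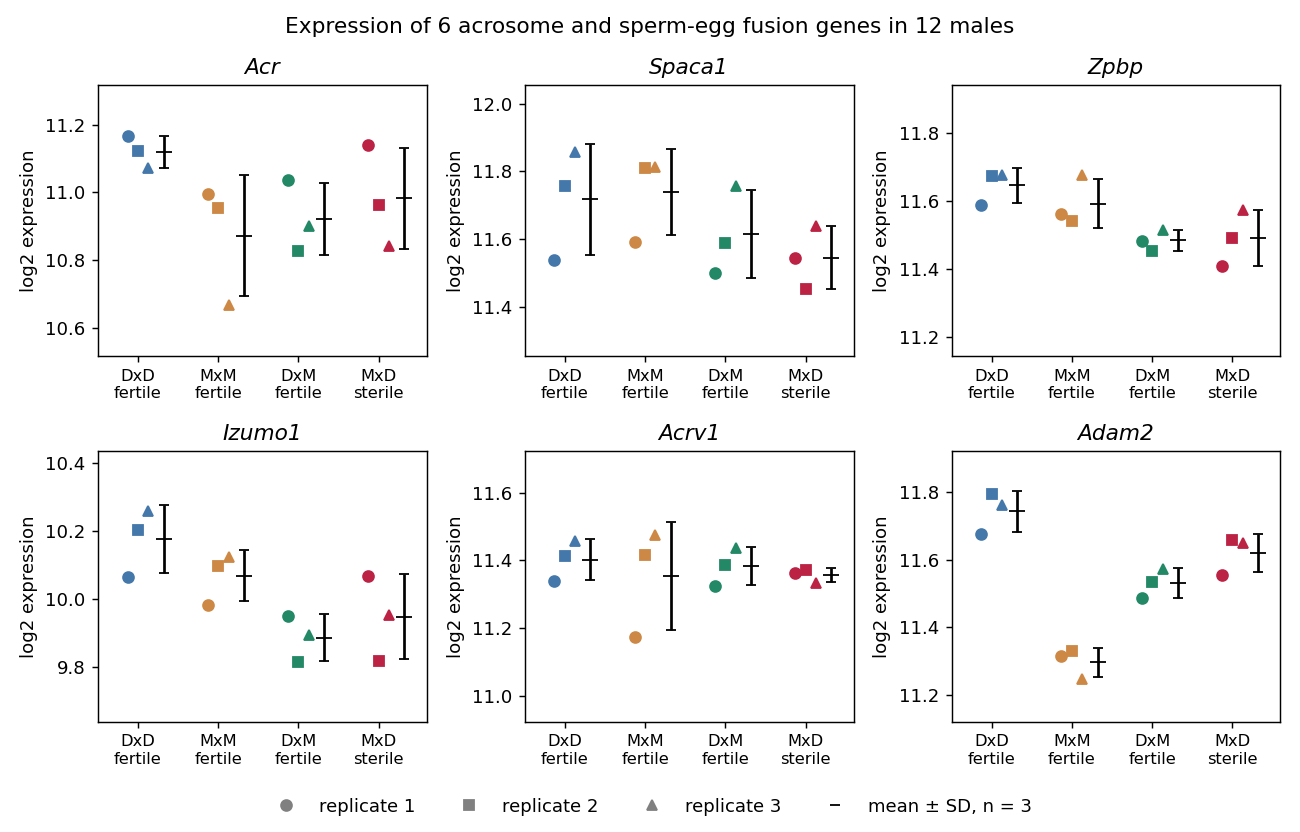
Log2 expression of each gene (y axis, a window of equal height in each panel) in the 3 males of each genotype (x axis), with symbols for the replicate number and bars for the mean ± SD (n = 3). The *MxD* males overlap with the *DxM* males in all 6 panels, and *Adam2* separates *DxD* (11.74) from *MxM* (11.30), with both hybrids between them.

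*Spaca1*, the inner acrosomal membrane gene, measured 11.54, 11.45 and 11.64 in the *MxD* males and 11.50, 11.59 and 11.76 in the *DxM* males. The log2 difference was -0.07 (standard error 0.10, 95% interval -0.30 to 0.16, limma adjusted p = 0.78). It measured 11.54, 11.76 and 11.86 in *DxD* and 11.59, 11.81 and 11.81 in *MxM*. The means were in the order *MxM*, *DxD*, *DxM*, *MxD*, from 11.74 to 11.55, and neighbours in that order differed by less than the spread between males. In the study's annotation, *Spaca1* is the only one of the 6 genes with an entry in the part used here, on chromosome 4 of NCBI build 37, where it is listed as highest in round spermatids (postmeiotic).

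*Zpbp*, which encodes a zona-binding protein of the acrosomal matrix, measured 11.41, 11.49 and 11.57 in *MxD* and 11.48, 11.45 and 11.52 in *DxM*. The *DxM* values lay within the range of the *MxD* males, and the difference was 0.01 (standard error 0.07, 95% interval -0.14 to 0.16, limma adjusted p = 0.97). The values were 11.59, 11.68 and 11.68 in *DxD* and 11.56, 11.54 and 11.68 in *MxM*, so every *DxM* male lay below all 6 males of the within-species crosses. The share of all genes with that pattern was not counted. *Zpbp* had a pooled within-genotype SD of 0.06, and 6.14% of all genes had a smaller one.

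*Acrv1*, the gene of the matrix protein SP-10, was the flattest over the 4 genotype means. It measured 11.36, 11.37 and 11.33 in *MxD* and 11.33, 11.39 and 11.44 in *DxM*, a difference of -0.03 (standard error 0.08, 95% interval -0.20 to 0.15, limma adjusted p = 0.91). *DxD* males measured 11.34, 11.41 and 11.46, and *MxM* males 11.17, 11.42 and 11.47. The order of the means was *DxD*, *DxM*, *MxD*, *MxM*, from 11.40 to 11.35, a range below the SD of the *MxM* males (0.16). No comparison of *Acrv1* passed the test, and its lowest limma adjusted p over the 6 comparisons was 0.69.

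*Acr*, the proacrosin gene, measured 11.14, 10.96 and 10.84 in *MxD* and 11.04, 10.83 and 10.90 in *DxM*. The difference was 0.06 (standard error 0.10, 95% interval -0.17 to 0.29, limma adjusted p = 0.81). It measured 11.17, 11.12 and 11.07 in *DxD* and 10.996, 10.95 and 10.67 in *MxM*, where the lowest value is that of *MxM* replicate 3. In each genotype the replicate 1 male was the highest for *Acr*, whereas for *Spaca1* and *Acrv1* it was the lowest in *DxD*, *MxM* and *DxM*. The pooled SD of 0.13 equalled the median over all genes to 2 decimals.

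*Izumo1*, which encodes the protein that docks sperm to the egg membrane, measured 10.07, 9.82 and 9.95 in *MxD* and 9.95, 9.81 and 9.89 in *DxM*. The difference was 0.06 (standard error 0.08, 95% interval -0.12 to 0.25, limma adjusted p = 0.75). It measured 10.07, 10.20 and 10.26 in *DxD* and 9.98, 10.10 and 10.12 in *MxM*, while *MxD* replicate 1 (10.07) was just above the lowest *DxD* male. All 3 *DxM* males lay below all 6 males of the within-species crosses, a pattern whose share over all genes was not counted.

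*Adam2*, the fertilin beta gene, measured 11.55, 11.66 and 11.65 in *MxD* and 11.49, 11.54 and 11.57 in *DxM*. The difference was 0.09 (standard error 0.06, 95% interval -0.05 to 0.23, limma adjusted p = 0.47). It measured 11.68, 11.79 and 11.76 in *DxD* and 11.31, 11.33 and 11.25 in *MxM*. The order of the means was *DxD*, *MxD*, *DxM*, *MxM*, from 11.74 to 11.30, and every *MxM* male lay below every other male. How many of all genes place *MxM* outside all other males was not counted. The pooled SD of *Adam2*, 0.05, was among the smallest, with 2.94% of all genes below it.

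Against the *DxD* males, all 6 genes had a lower mean in *MxD*, by 0.05 for *Acrv1* to 0.23 for *Izumo1* on the log2 scale, but 0 of the 6 passed the test, where 31.0% of all genes did. By limma, 2 of the 6, *Izumo1* and *Zpbp*, had an unadjusted p under 0.05 (42.0% of all genes), and by the methods' t-test 0 of the 6 (34.7%, or 9.34% after adjustment). For *Izumo1* the difference was -0.23 (standard error 0.08, 95% interval -0.41 to -0.05, limma adjusted p = 0.058). For *Zpbp* it was -0.16 (standard error 0.07, 95% interval -0.30 to -0.01, limma adjusted p = 0.10). Every *MxD* male lay below every *DxD* male for *Zpbp* and *Adam2*, 2 of the 6 genes, while 50.5% of all genes separated these genotypes without overlap.

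Blocking on the replicate number changed this comparison: *Zpbp* (limma adjusted p = 0.033) and *Izumo1* (limma adjusted p = 0.040) then passed, 2 of the 6 where 46.0% of all genes passed. *Izumo1* also passed without *DxD* replicate 1 (limma adjusted p = 0.047), where 1556 of all 7000 genes were called. It passed without *MxD* replicate 1 as well (limma adjusted p = 0.031), where 2060 of all 7000 genes were called. The same gene passed without all replicate 1 males (25.6% of all genes called) and with a trend and robust prior (31.5%). With array weights 4 of the 6 genes passed where 45.2% of all genes did, namely *Spaca1*, *Zpbp*, *Izumo1* and *Adam2*, all lower in *MxD*.

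Against the *MxM* males, 1 of the 6 genes differed in *MxD*, where 30.3% of all genes did. This was *Adam2*, higher in *MxD* by 0.32 on the log2 scale (standard error 0.06, 95% interval 0.18 to 0.46, limma adjusted p = 0.0033), a 1.25-fold difference without overlap between the males, as was found for 37.9% of all genes. The other 5 genes differed by -0.19 for *Spaca1* to 0.11 for *Acr*, and their males overlapped. Under the replicate block *Spaca1* also passed (limma adjusted p = 0.044), so that 2 of the 6 did, against 43.9% of all genes. By the methods' t-test *Adam2* had an unadjusted p of 0.0019, which Benjamini-Hochberg adjustment raised to 0.086 (0.0429% of all genes were called by that test).

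**Figure D2:**
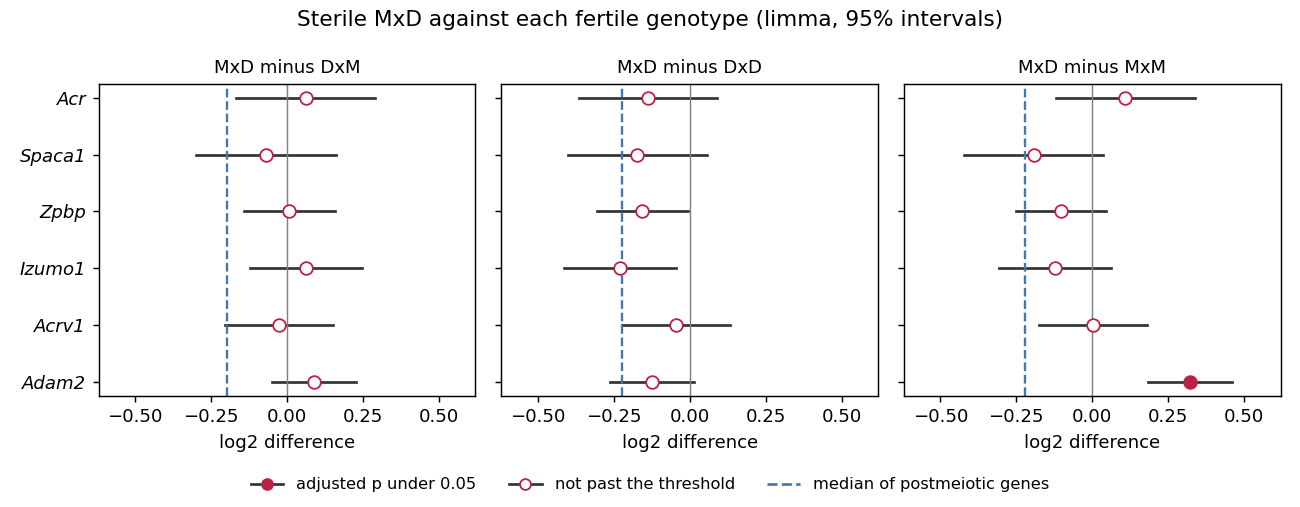
Log2 difference of each gene (x axis) between *MxD* and each fertile genotype, as the limma estimate with its 95% interval. Filled points passed an adjusted p under 0.05, and the dashed line is the median of 268 postmeiotic genes in the same comparison (-0.20, -0.22 and -0.22). Only *Adam2* against *MxM* is filled, at 0.32.

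To place the 6 genes beside genes with a listed cell type, they were compared with the cell-type classes of the study's annotation. The part used here covers genes of chromosomes 1 to 4 and some of chromosome 5. Of the 6 genes it lists only *Spaca1* (postmeiotic), so whether the others belong to that class is not known here. The classes name the testis cell population in which a gene is most induced. Among genes other than the 6, 268 are postmeiotic, 324 meiotic, 367 mitotic (spermatogonia) and 142 somatic (Sertoli cells). In expression values of whole testis, fewer cells of a type and less RNA per cell cannot be told apart. By histology the paper reports a marked loss of postmeiotic cells in *MxD* testis. The part of that loss in these values was not tested. Between *MxD* and *DxM* the median difference was -0.20 for postmeiotic genes, -0.04 for meiotic, 0.11 for somatic and 0.16 for mitotic genes, against 0.03 for the 6 acrosome and fusion genes. The quartiles were -0.33 and -0.09 for postmeiotic genes and -0.13 and 0.04 for meiotic genes. The median of the 6 genes thus lay above the postmeiotic quartiles and inside the meiotic ones. It also lay inside the quartiles of somatic genes (-0.03 and 0.23) and of all 7000 genes (-0.12 and 0.12). The mitotic quartiles (0.05 and 0.27) were above it. The median therefore does not single out the meiotic class, and *Acr*, *Izumo1* and *Adam2* lay above the upper meiotic quartile. Among the postmeiotic genes 238 of 268 had a lower mean in *MxD*, and limma called 38 lower (14.2%, against 3.50% of all genes) and 1 higher. Under the replicate block 93 of them were called lower (34.7%, against 8.83% of all genes).

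For each male, the median deviation of the postmeiotic genes from their medians over the 12 males was -0.21 to -0.11 in *MxD*, 0.01 to 0.03 in *DxM*, 0.02 to 0.04 in *DxD* and 0.01 to 0.10 in *MxM*. The median deviation of the 6 genes was -0.04 to -0.01 in *MxD* and -0.07 to -0.01 in *DxM*, 0.04 to 0.16 in *DxD* and -0.03 to 0.10 in *MxM*. The postmeiotic class therefore set the *MxD* males apart from all 9 fertile males, and the 6 genes did not. For the mitotic genes the range was 0.10 to 0.23 in *MxD* and -0.13 to 0.06 over the fertile males. The part of these shifts in the values of single genes was not tested.

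In the comparison of the hybrids, *Adam2* lay above 95.5% of the postmeiotic genes, *Acr* and *Izumo1* each above 93.7%, *Zpbp* above 89.6%, *Acrv1* above 85.8% and *Spaca1* above 78.0%. The 95% intervals of *Acr*, *Zpbp*, *Izumo1* and *Adam2* excluded the postmeiotic median of -0.20, and those of *Spaca1* and *Acrv1* included it. Under the replicate block the interval of *Acrv1* was -0.17 to 0.12 and excluded it as well, and that of *Spaca1* (-0.22 to 0.08) still included it. The class is itself broad in this comparison (quartiles -0.33 and -0.09). How many of its own genes have an interval that excludes the class median was not counted, here or against *DxD* and *MxM*. Because the 6 genes are bright on these arrays, with means over the 12 males of at least 10.02, the 101 postmeiotic genes at or above that level were also taken alone, a choice made after seeing the data. Their median was -0.18, and the same intervals included and excluded it, with and without the block.

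Against *DxD*, the 95% intervals of all 6 genes included the postmeiotic median of -0.22, and *Izumo1* lay above 48.9% of the postmeiotic genes. Under the replicate block the interval of *Acrv1* (-0.19 to 0.10) excluded that median. The median of the bright postmeiotic genes was -0.13, inside the intervals of all 6 genes with or without the block. Against *MxM*, the intervals of *Acr*, *Acrv1* and *Adam2* excluded the postmeiotic median of -0.22, and under the block that of *Zpbp* (-0.22 to 0.01) did by a margin under 0.01. The bright postmeiotic genes had a median of -0.16, which the interval of *Acrv1* (-0.18 to 0.18) included, although its interval under the block (-0.14 to 0.15) did not, and which the block interval of *Zpbp* included. *Spaca1* lay above 53.4% of the class. Whether the distance of the 6 genes from the postmeiotic class differs between these comparisons, which share the *MxD* males, was not tested.

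**Figure D3:**
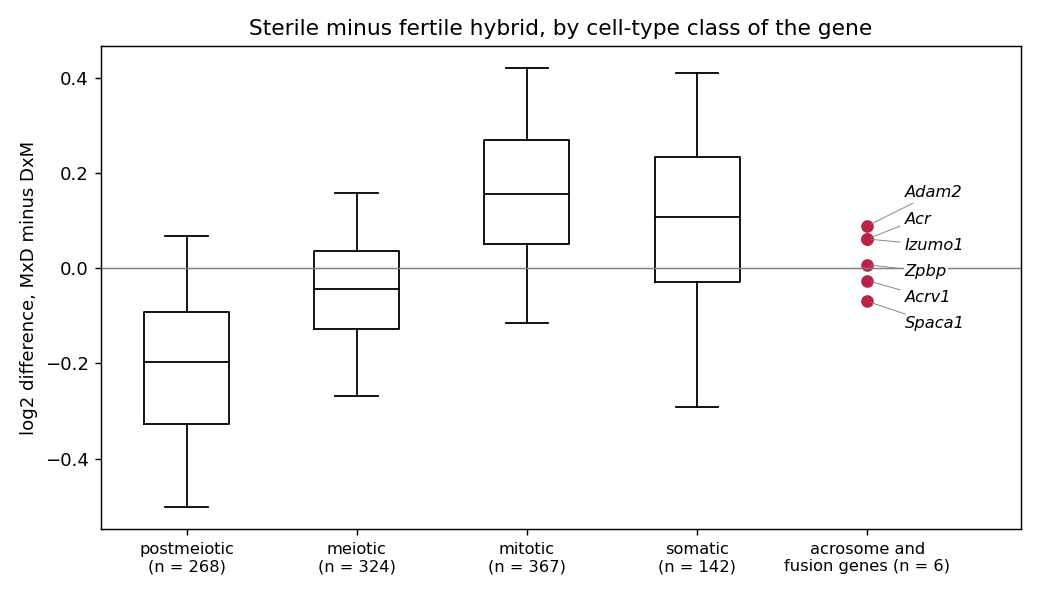
Log2 difference between the sterile and the fertile hybrid (*MxD* minus *DxM*, y axis) for genes of 4 cell-type classes and for the 6 acrosome and fusion genes (points). Boxes span the quartiles with the median as a line, and whiskers run from percentile 5 to percentile 95 of the genes. The 6 genes lie between -0.07 and 0.09, in the upper part of the postmeiotic class (median -0.20).

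Among the fertile males, the within-species crosses differed at 1 of the 6 genes, where 31.9% of all genes differed. This was *Adam2*, which averaged 11.74 ± 0.06 in *DxD* and 11.30 ± 0.04 in *MxM* (each SD, n = 3). The log2 difference was 0.45 (standard error 0.06, 95% interval 0.31 to 0.58, limma adjusted p = 2.7e-04), a 1.36-fold difference. With unequal variances, the methods' t-test made only this call among the 6 genes after Benjamini-Hochberg adjustment (adjusted p = 0.027). That test called 6.69% of all genes in this comparison. The *Adam2* difference passed under each of the 22 alternatives. *Acr* was higher in *DxD* by 0.25 (standard error 0.10, 95% interval 0.02 to 0.47), without overlap between the males, but its limma adjusted p was 0.094. Under a replicate block *Acr* joined *Adam2* (2 of the 6, against 44.4% of all genes), although the numbers do not count as pairing these males. Groups without overlap were found for these 2 of the 6 genes and for 44.9% of all genes. Sequence differences between the *M. musculus* strains and the array probes were not analysed here.

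The fertile hybrid stood below *DxD* at each of the 6 means, and 1 of the 6 genes differed, where 12.1% of all genes did. *Izumo1* was lower in *DxM* by 0.29 on the log2 scale (standard error 0.08, 95% interval 0.11 to 0.47, limma adjusted p = 0.045), so *DxD* was 1.22-fold higher. That call was lost without *DxD* replicate 2 or 3, *MxM* replicate 2, any 1 *DxM* male or *MxD* replicate 3 (limma adjusted p from 0.058 to 0.17) and under the methods' t-test (unadjusted p = 0.018, adjusted p = 0.13, with 2.43% of all genes called, and 11.1% with equal variances). *Adam2* was lower in *DxM* by 0.21 (standard error 0.06, limma adjusted p = 0.052). Under the replicate block *Zpbp* (limma adjusted p = 0.048), *Izumo1* (0.029) and *Adam2* (0.018) passed, 3 of the 6 where 22.6% of all genes did. *Adam2* also passed without *MxM* replicate 3 (limma adjusted p = 0.043), where 1110 of all 7000 genes were called. *Izumo1* and *Adam2* both passed with a trend and robust prior (11.8% of all genes called), without the dimmest 25% of genes (11.7%) and with cyclic loess (13.7%), and *Acr* and *Zpbp* joined them with array weights (32.4%). *Acr*, *Zpbp*, *Izumo1* and *Adam2* separated *DxM* from *DxD* without overlap, as 37.7% of all genes did.

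Between *DxM* and *MxM*, 1 of the 6 genes differed, where 16.9% of all genes did. *Adam2* was higher in *DxM* by 0.23 (standard error 0.06, 95% interval 0.09 to 0.37, limma adjusted p = 0.027), which is 1.18-fold. The limma adjusted p rose to between 0.051 and 0.096 without *MxM* replicate 2 or 3 or any 1 *DxM* male, and the methods' t-test gave an unadjusted p of 0.0028 and an adjusted p of 0.12 (0.0571% of all genes called). It was also lost with equal variances (2.56%), in a fit of *DxM* and *MxM* alone (7.61%), with array weights (12.8%) and without all replicate 1 males (12.2%), and kept under the replicate block (27.4%). *Zpbp*, *Izumo1* and *Adam2* did not overlap between these males, 3 of the 6 genes where 30.3% of all genes did not. The first 2 were lower in *DxM*, by 0.11 (limma adjusted p = 0.32) and 0.18 (limma adjusted p = 0.17). These comparisons share males, so their counts are not independent of each other.

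**Figure D4:**
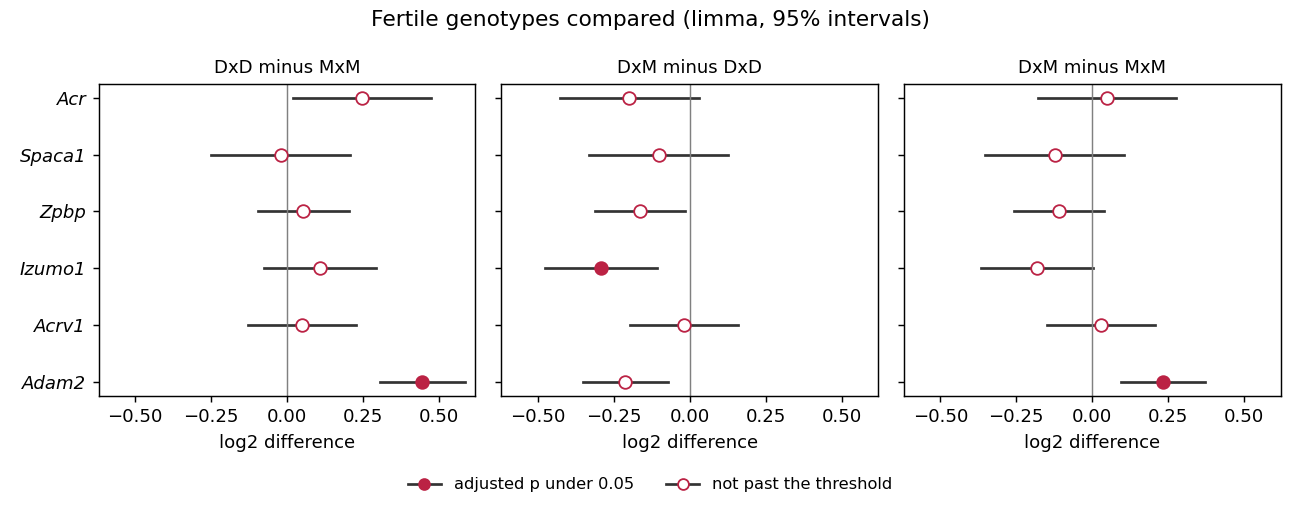
Log2 difference of each gene (x axis) between the fertile genotypes, as the limma estimate with its 95% interval, filled where the adjusted p was under 0.05. *Adam2* is filled for *DxD* minus *MxM* (0.45) and *DxM* minus *MxM* (0.23), and *Izumo1* for *DxM* minus *DxD* (-0.29).

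The 6 profiles over the 12 males were also compared with each other, by the root mean square difference of log2 values after each gene was centred on its own mean. *Spaca1*, *Zpbp*, *Izumo1* and *Acrv1* were at 0.10 to 0.13 from each other. *Acr* and *Adam2* were at 0.16 to 0.22 from each of these 4 and at 0.15 from each other. Ranks among 6999 genes depended on the direction: *Zpbp* was the 14th closest gene to *Izumo1*, but *Izumo1* ranked 302 for *Zpbp*. *Zpbp* ranked 70 for *Spaca1* and *Spaca1* 326 for *Zpbp*, and *Izumo1* ranked 1308 and *Spaca1* 517 for *Acrv1*. *Acr* ranked 557 for *Adam2* and *Adam2* 577 for *Acr*. The 2 closest genes of each member, at 0.03 to 0.08, have no name in the tables used here. The second closest to *Spaca1*, at 0.06, is listed as somatic, and the others have no cell type in the part used. The measure favours flat profiles and is given as a description.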

How the data were processed

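Whole-testis RNA of 12 males was hybridised by the authors to 1 array each. Per the study's methods PLIER gave 1 value per Ensembl gene, using a BRAINARRAY probe grouping. They kept genes whose perfect match signal exceeded the mismatch signal in every male and quantile normalized the arrays. The deposited log2 values were used unchanged. Genotype differences came from a model of the 4 genotype means in limma 3.58.1 (R 4.3.3), tested two-sided and adjusted over 7000 genes. The procedure was also run on simulated data, with independent noise and the same spread in all genotypes of a gene. Those data lack the unequal spreads and the likeness of same-numbered males seen here, so they cannot show how these affect the calls. Figures were drawn with matplotlib 3.10.9.

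The 6 genes, the lists and the tests were chosen with earlier results of these data known. The comparison with cell-type classes was added after seeing the data. The genes to be named were the 6 members, the 2 closest profiles of each and the largest called changes within the lists. Lists of 88 further acrosome, fusion and exocytosis genes and of 82 cell-type markers had been drawn up, but the files give Ensembl identifiers without names, and the names of the 6 genes came with their identifiers in the choice of members. The tables used here name 0 and 1 of them (*Cyp17a1*), so neither list nor the labelled tissue could be checked by markers. Classes came from 1997 annotation rows, 1102 with a cell type. Protein and promoter sequences were not used here.

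To see whether replicate numbers pair males, each male's residuals were correlated across genes with those of the male of the same number. The lowest r was 0.41 for *MxD* with *DxM*, 0.19 for *MxD* with *DxD*, 0.16 for *DxM* with *DxD* and 0.15 for *MxD* with *MxM*. All exceeded 0.1, the threshold set, so by this rule the numbers count as pairing these males, on the values alone. The lowest r was -0.05 for *DxM* with *MxM* and 0.07 for *DxD* with *MxM*, which do not count as paired. Males of different numbers were not correlated with each other, so these values cannot show that a number marks a real pairing. Since no source states that males came from separate litters, p-values measure the spread between these males.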

Additional observations from a re-analysis of the deposited data

How the results depend on the processing

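Of 792 combinations of the 36 gene differences with 22 alternatives, 730 kept direction and call, 21 gained a call, 20 lost one and 21 changed sign, all of the last for uncalled differences. No alternative called a gene between *MxD* and *DxM*. Without all replicate 1 males, a setting chosen after seeing the data, 1 gene (*Izumo1*) passed for *MxD* against *DxD* and 0 for *DxM* against *MxM*. Under the replicate block 2 genes passed for *MxD* against *DxD*, 2 for *MxD* against *MxM*, 3 for *DxM* against *DxD* and 2 for *DxD* against *MxM* (*Acr* added, limma adjusted p = 0.019); the block changed no call of *DxM* against *MxM* or *MxD* against *DxM*. With a trend and robust prior, 1 passed for *MxD* against *DxD* and 2 for *DxM* against *DxD*. With array weights, whose estimation stopped before convergence, 4 passed for each of these and 0 for *DxM* against *MxM*. The methods' t-test with unequal variances called 0 genes for *MxD* against *MxM*, 0 for *DxM* against *DxD* and 0 for *DxM* against *MxM*, and with equal variances 0 for the last 2. A fit of the 2 genotypes alone called 0 for *DxM* against *MxM*. Without the dimmest 25% of genes, and with cyclic loess, 2 passed for *DxM* against *DxD* (*Adam2* added). With each male left out in turn the count was 0 to 1 for *MxD* against *DxD* and 0 to 2 for *DxM* against *DxD*. It was 0 to 1 for *DxM* against *MxM*, and throughout 0 for *MxD* against *DxM* and 1 for the other 2 comparisons. Over all 7000 genes the same fits called 1536 to 2605 for *MxD* against *DxD* and 1481 to 2158 for *MxD* against *MxM*. They called 1667 to 2554 for *DxD* against *MxM* and 448 to 1110 for *DxM* against *DxD*. For *DxM* against *MxM* they called 724 to 1397, and for *MxD* against *DxM* 172 to 667. The cause of the changes in calls between settings was not tested.

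Signs changed with array weights for *Spaca1* in *DxD* minus *MxM* (0.0196), and without all replicate 1 males for *Acrv1* in *MxD* minus *MxM* (-0.0909), *DxM* minus *MxM* (-0.0329) and *DxD* minus *MxM* (-0.0103). With each male left out in turn, *MxD* minus *DxM* ran from -0.0181 to 0.1313 for *Acr*, -0.1273 to 0.0016 for *Spaca1*, -0.0336 to 0.0484 for *Zpbp* and -0.0549 to 0.0008 for *Acrv1*. *Acrv1* ran from -0.0879 to 0.0628 in *MxD* minus *MxM*, -0.0514 to 0.0095 in *DxM* minus *DxD*, -0.0617 to 0.0890 in *DxM* minus *MxM* and -0.0424 to 0.1083 in *DxD* minus *MxM*. *Acr* ran from -0.0540 to 0.1101 in *DxM* minus *MxM*, and *Spaca1* from -0.0938 to 0.0695 in *DxD* minus *MxM*.

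Counts over all genes moved by more than 1.5 times in some settings. From 455 for *MxD* against *DxM*, they were 0 and 9 with the methods' t-test (unequal and equal variances), 1201 with the block, 780 with array weights, 272 without replicate 1 and 172 to 667 with 1 male left out. The t-test with unequal variances gave 654 of 2170 for *MxD* against *DxD*, 3 of 2122 for *MxD* against *MxM*, 170 of 844 for *DxM* against *DxD*, 4 of 1181 for *DxM* against *MxM* and 468 of 2230 for *DxD* against *MxM*. With equal variances the counts were 420 for *MxD* against *MxM*, 179 for *DxM* against *MxM* and 1377 for *DxD* against *MxM*. The 2 genotypes alone gave 1048 for *MxD* against *MxM* and 533 for *DxM* against *MxM*. For *DxM* against *DxD*, the block gave 1584, array weights 2268, removal of replicate 1 520 and single males left out 448 to 1110. For *DxM* against *MxM*, the block gave 1918 and single males left out 724 to 1397. The postmeiotic median between *MxD* and *DxM* stayed between -0.23 and -0.18 with single males left out. The 95% intervals of the 6 genes reached 0.14 (*Adam2*) to 0.23 (*Spaca1*) to each side of an estimate on the log2 scale, which limits what these arrays can detect.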

Other observations

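Of the 101 postmeiotic genes at least as bright as the dimmest of the 6 genes, limma called 10 lower and 0 higher in *MxD* than in *DxM*. Against *DxD* 23 were called lower and 1 higher, and against *MxM* 29 lower and 2 higher. Over the whole class of 268 postmeiotic genes, limma called 14.2% lower against *DxM*, 33.6% against *DxD* and 39.2% against *MxM*. The shares called lower over all 7000 genes were 3.50%, 15.1% and 17.3%.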
